A study of Mus musculus with 6 samples.

Results

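Macrophages of the testis were followed through 10 genes that mark them or carry out their work: C1qa, C1qb, C1qc, Vsig4, Cd14, Mrc1, Csf1r, Lyz2, Laptm5 and Cd68. The members were taken as every array probe whose annotated gene symbol is one of these names, with Lyz2 also under its older symbol Lyzs, and a probe was kept where it was detected (detection p under 0.05) in at least 2 of 5 mice. This gave 12 probes for 9 of the 10 genes, of 45281 probes on the array. Of these, 10 were kept, and all 9 genes with a probe passed through at least 1 of them, among 11755 genes kept in all. No probe carries the symbol Cd68, so that this lysosomal membrane protein is not analysed here. A dimmer Csf1r probe and 1 of 3 Lyz2 probes were detected in 0 mice and were not kept.

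The study asked which transcripts change in the testis when BET bromodomains are inhibited. JQ1, a small molecule that occupies the acetyl-lysine pocket of the BET proteins including the testis-specific BRDT, was given to 3 male C57/129 mice as a daily intraperitoneal dose of 50 mg/kg that began at 6 weeks of age and ended at 12, after 6 weeks. The 2 control mice were males of the same mixed strain and age that received vehicle. Whole testis RNA was read on 6 Illumina bead arrays of 1 colour, of which 2 hold the same RNA of control mouse 1 and were averaged.

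Resident macrophages lie between the seminiferous tubules, in contact with the testosterone-producing Leydig cells, and on the outer face of the tubule wall. They engulf dying cells and debris, make the recognition subunit of the classical complement pathway, and are kept alive by the growth factor CSF1 through its receptor. Tissue macrophages depend on the transcription factor PU.1 (gene Spi1), which binds purine-rich sites with the core GAGGAA.

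To show this sequence context, the window from 250 bases before to 50 bases after the start site, from RefSeq on GRCm38.p6, was searched for GAGGAA on both strands. A window was found for 7 of the 10 genes, and 6 of them held the core, against 28.3% of 27025 promoters of the same length. C1qb (chr4:136886151-136886450, minus strand) and C1qc (chr4:136892865-136893164, minus strand) are shown as neighbours of 1 gene cluster, Vsig4 (chrX:96293389-96293688, minus strand) as the member that changed most, and Lyz2 (chr10:117282223-117282522, minus strand) as the member without the core. Each is written 5′ to 3′ along its gene in lower case. Capitals mark GAGGAA, or TTCCTC where it lies on the opposite strand.
C1qb: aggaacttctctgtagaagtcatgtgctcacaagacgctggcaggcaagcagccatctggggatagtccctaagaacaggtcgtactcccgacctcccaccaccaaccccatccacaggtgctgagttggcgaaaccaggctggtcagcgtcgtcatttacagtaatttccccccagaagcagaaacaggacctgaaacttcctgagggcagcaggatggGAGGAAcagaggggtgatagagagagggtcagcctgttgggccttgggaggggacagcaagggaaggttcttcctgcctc
C1qc: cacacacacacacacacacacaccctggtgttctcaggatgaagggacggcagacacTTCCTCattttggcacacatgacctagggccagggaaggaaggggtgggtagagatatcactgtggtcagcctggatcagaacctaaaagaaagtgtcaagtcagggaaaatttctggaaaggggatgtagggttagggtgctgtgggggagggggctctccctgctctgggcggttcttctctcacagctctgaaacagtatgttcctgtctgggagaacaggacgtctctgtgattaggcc
Vsig4: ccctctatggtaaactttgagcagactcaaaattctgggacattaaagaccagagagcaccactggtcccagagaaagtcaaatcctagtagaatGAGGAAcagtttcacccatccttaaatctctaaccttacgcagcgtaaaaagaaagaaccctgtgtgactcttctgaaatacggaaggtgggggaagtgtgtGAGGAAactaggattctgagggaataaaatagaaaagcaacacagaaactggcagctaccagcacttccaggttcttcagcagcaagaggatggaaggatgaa
Lyz2: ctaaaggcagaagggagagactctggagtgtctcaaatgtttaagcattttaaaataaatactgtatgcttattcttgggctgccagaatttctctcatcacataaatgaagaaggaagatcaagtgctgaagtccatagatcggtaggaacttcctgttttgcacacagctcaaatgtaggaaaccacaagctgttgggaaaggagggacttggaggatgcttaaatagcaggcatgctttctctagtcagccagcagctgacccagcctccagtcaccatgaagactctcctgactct
The core began 30 bases upstream of the start site in C1qb, 193 bases upstream in C1qc on the opposite strand, and 155 and 53 bases upstream in Vsig4. Laptm5 held it 38 bases upstream and Mrc1 180, 167 and 35 bases upstream, all on the opposite strand. Cd68 held it 225 bases upstream and again, on the opposite strand, at base 30 after the start. A C/EBP-type site, TTNNGNAA on either strand, was found in C1qc, Vsig4, Lyz2, Mrc1 and Cd68, and in 40.7% of all promoters. Of the other motifs searched on both strands, the AP-1 site TGANTCA stood only in the Cd68 window (7.93% of all promoters) and TATAAA only in that of Laptm5 (14.2%). These matches describe the letters of the windows and were not tested as binding sites.

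Detection was 19623 to 20326 probes on the JQ1 arrays and 17799 to 18918 on the control arrays, and arrays had a median raw signal of 101.8 to 142.2. Across the 20901 kept probes JQ1 mice differed from each other with an SD of 0.27 to 0.32 on the log2 scale and the control mice with 0.32, against 0.28 between the 2 arrays of control mouse 1. Values below are normalized log2 signals, which are shares of the testis RNA on an array and not amounts per testis. A gene is given by its brightest kept probe, and because probes differ in how brightly they bind, levels are compared between mice and not between genes. Groups were compared with limma, and the Benjamini-Hochberg adjustment of its p-values ran over all kept probes. A gene was called where its adjusted p was under 0.05 and its change at least 2-fold. A single gene tested by exact permutation of 3 against 2 mice could not reach a p below 0.1. The labels name neither slide nor scan date, so that array batches were not tested.

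All 9 measured macrophage genes rose in the JQ1 testes, where arrays were normalized to a common distribution, and 6 of their 9 fold changes were negative after rescaling to equal Sertoli cell signal, which moved all genes by a median of -1.27. Their median log2 fold change was 1.09, or 2.12-fold, against a median of 0.000322 over all 11755 genes, whose middle 50% lay between -0.36 and 0.44. The complement receptor gene Vsig4 changed most, 4.90-fold (95% interval 3.35 to 7.18), and the CSF1 receptor gene Csf1r least, 1.63-fold (1.25 to 2.11). Vsig4, Lyz2, Cd14, Laptm5 and C1qc were called, which is 5 of 9 members, where 8.41% of all genes were called higher. None was called lower (0 of 9, against 2.83% of all genes). The adjusted p alone was passed by 9 of 9, where 25.0% of all genes passed as higher and 21.6% as lower. In 9 of 9 every JQ1 mouse lay above both control mice, as in 33.9% of all genes, and in 0 below both, as in 32.0%. The members were chosen with earlier results of these data known, so that these counts describe them and are not tested. In whole testis RNA, more macrophages and more of these transcripts in each macrophage cannot be told apart. Nor can either be told from unchanged macrophages that make up a larger share of a smaller testis. The study reported a reduced testis volume in treated males. How far testis size set the members' share was not tested.

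**Figure D1:**
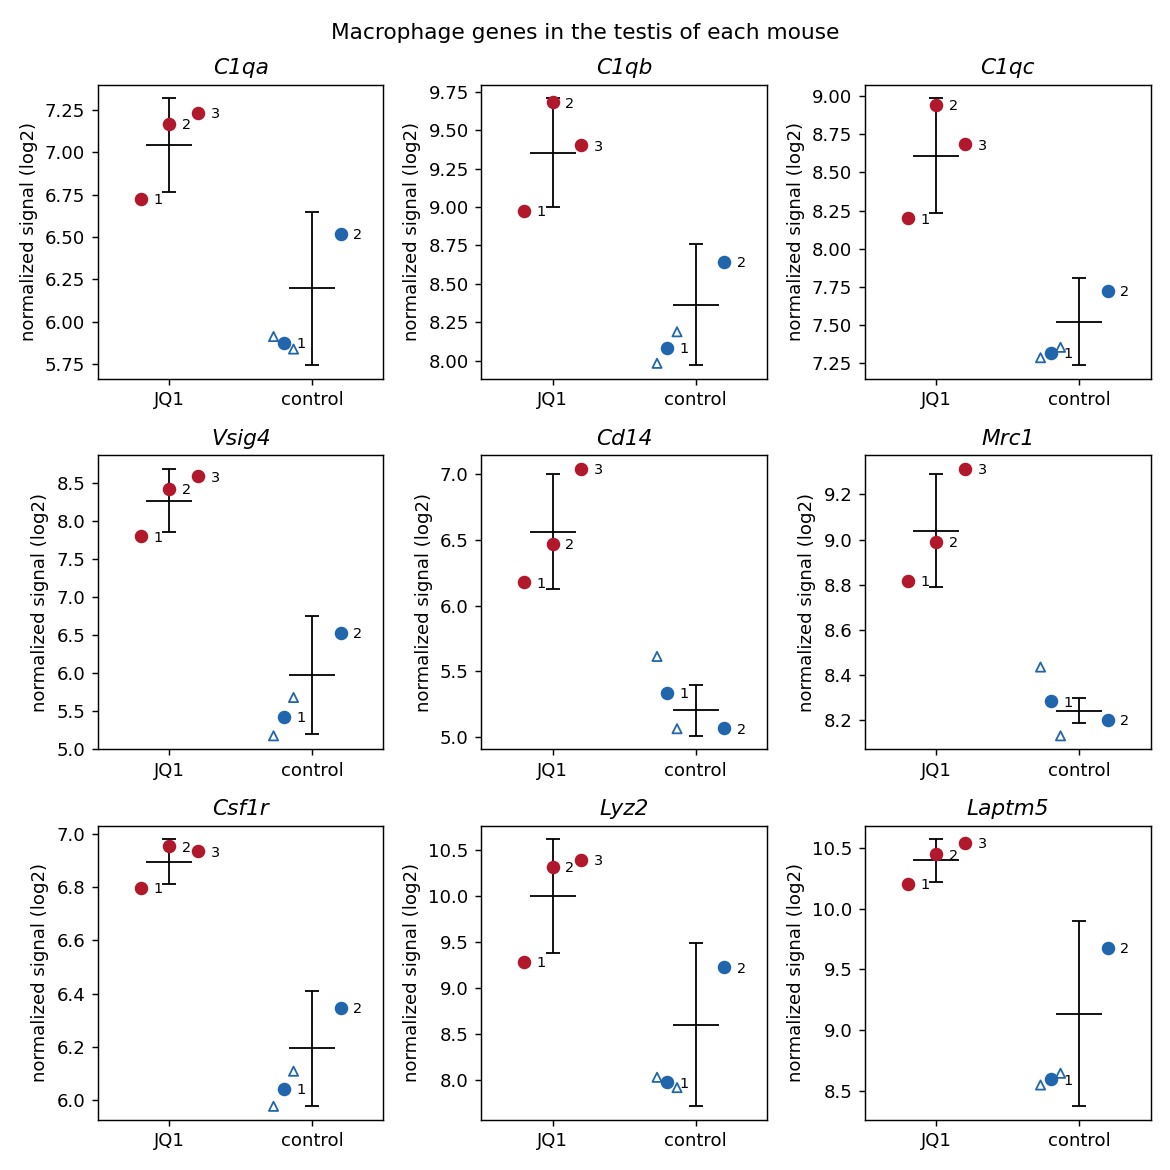
Normalized log2 signal of each macrophage gene, by mouse (filled points, numbered) in the JQ1 (red) and control (blue) groups, with horizontal bars for the group mean and vertical bars for 1 SD; open triangles are the 2 arrays of control mouse 1, and each panel has its own axis. The 3 JQ1 mice lie above both control mice in every panel, with Lyz2 the closest, at 9.29 in JQ1 mouse 1 and 9.23 in control mouse 2 (this order holds on the common-distribution scale shown; rescaling to equal Sertoli cell signal, which moves all genes by a median of -1.27, turns 6 of the 9 fold changes negative).

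C1qa, C1qb and C1qc encode the 3 chains that assemble into C1q, the molecule that recognises antibody and apoptotic cell surfaces and starts the classical complement pathway. Macrophages are its main source in tissues, and the 3 genes lie side by side on chromosome 4 with no other annotated gene between them. C1qa had log2 signals of 6.73, 7.17 and 7.23 in JQ1 mice 1, 2 and 3, against 5.88 and 6.52 in control mice 1 and 2. C1qb had 8.98, 9.68 and 9.40 in the JQ1 mice and 8.09 and 8.64 in the control mice. C1qc had 8.20, 8.94 and 8.69 in the JQ1 mice and 7.32 and 7.72 in the control mice. For each chain the lowest JQ1 mouse was mouse 1, the higher control was mouse 2, and the groups did not overlap. Between JQ1 mouse 1 and control mouse 2 the log2 gap was 0.21 for C1qa, 0.33 for C1qb and 0.48 for C1qc.

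All 3 chains passed the test, with rises of 1.80- to 2.12-fold. C1qc was 2.12-fold higher (log2 fold change 1.09, SE 0.20, adjusted p = 0.000227), C1qb 1.98-fold (0.99, SE 0.19, adjusted p = 0.000478) and C1qa 1.80-fold (0.84, SE 0.21, adjusted p = 0.00362). Their 95% intervals overlap, and differences between the chains were not tested. C1qc stood just past the 2-fold limit and C1qb just short of it, so that which of them was called changed with the setting. Without control mouse 1 the log2 fold changes were 0.88 for C1qc, 0.71 for C1qb and 0.52 for C1qa, and that of C1qa no longer passed (adjusted p = 0.106). Without control mouse 2 they were 1.29, 1.27 and 1.16 in the same order, and all 3 chains were called.

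Vsig4 encodes a receptor of tissue-resident macrophages that binds the complement fragments C3b and iC3b and takes up particles coated with them. It had log2 signals of 7.79, 8.42 and 8.59 in JQ1 mice 1, 2 and 3, and 5.42 and 6.52 in control mice 1 and 2. The lowest JQ1 mouse was 1.27 above the higher control mouse, the widest such gap among the members. The group means were 8.27 ± 0.42 in JQ1 mice (SD, n = 3) and 5.97 ± 0.78 in control mice (SD, n = 2). Its log2 fold change of 2.29 (SE 0.26, adjusted p = 2.55e-06) placed it 10th among 11755 genes ordered by increase. In control mouse 1 the probe was near background, with a detection p of 0.0716 on the first array and 0.0139 on the second, so that the size of the fold rests partly on background there. It ranged from 1.74 without control mouse 1 to 2.84 without control mouse 2, and was 1.38 without background correction.

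Cd14 encodes the coreceptor that hands bacterial lipopolysaccharide to the TLR4 and MD-2 complex. Its log2 signals were 6.18, 6.47 and 7.04 in JQ1 mice 1, 2 and 3, against 5.34 and 5.06 in control mice 1 and 2. The groups stood 0.84 apart, and here control mouse 1 was the higher of the controls. The probe was detected in 3 of 3 JQ1 mice and in 1 of 2 control mice, on the first array of control mouse 1 only. Its 2.57-fold increase (log2 fold change 1.36, SE 0.23, adjusted p = 0.000118) is therefore measured against a near-background level, and without background correction it was 0.58 on the log2 scale.

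Mrc1 encodes the mannose receptor, an endocytic receptor for sugars that marks resident macrophages. It had log2 signals of 8.82, 8.99 and 9.31 in JQ1 mice 1, 2 and 3, and 8.28 and 8.20 in control mice 1 and 2. The control mice lay within 0.08 of each other, the closest of any member, and the lowest JQ1 mouse was 0.53 above them. Mrc1 was 1.74-fold higher (log2 fold change 0.80, SE 0.16, adjusted p = 0.000606), under the 2-fold limit, and its change varied least when mice were left out, between 0.66 and 0.91.

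Csf1r encodes the receptor for CSF1 and IL-34, on which survival and renewal of macrophages depend. It had log2 signals of 6.80, 6.95 and 6.94 in JQ1 mice 1, 2 and 3, and 6.04 and 6.35 in control mice 1 and 2. The JQ1 mice lay within 0.16 of each other, the narrowest range of the members, and 0.45 separated the groups. The change was 1.63-fold (log2 fold change 0.70, SE 0.18, adjusted p = 0.00417), and without control mouse 1 it was 0.55 on the log2 scale and did not pass (adjusted p = 0.0678).

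Lyz2 encodes the lysozyme of macrophages and other myeloid cells, which cuts bacterial cell walls. Its brighter probe had log2 signals of 9.29, 10.32 and 10.39 in JQ1 mice 1, 2 and 3, against 7.97 and 9.23 in control mice 1 and 2. The groups all but met, with JQ1 mouse 1 only 0.06 above control mouse 2, and each group spread over more than 1 log2 unit. A dimmer Lyz2 probe had 7.23, 7.60 and 8.07 in the JQ1 mice and 5.70 and 6.90 in the control mice, with the same order of mice. The brighter probe was 2.64-fold higher (log2 fold change 1.40, SE 0.30, adjusted p = 0.000894) and the dimmer one 2.52-fold (1.33, SE 0.27, adjusted p = 0.000698). Without control mouse 1 the brighter probe's log2 fold change was 0.77 and did not pass (adjusted p = 0.0526), and without control mouse 2 it was 2.03. Lyz1, the neighbouring and closely similar lysozyme gene of Paneth cells, was 2.61-fold higher (adjusted p = 0.000327), with log2 signals of 11.58, 12.05 and 12.24 in JQ1 mice and 9.87 and 11.27 in control mice, and its log2 fold change was 0.69 without control mouse 1. Cross-hybridisation between the lysozyme probes was not tested, so that the assignment of this signal to Lyz2 is uncertain.

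Laptm5 encodes a lysosomal membrane protein of blood-derived cells. It had log2 signals of 10.20, 10.45 and 10.54 in JQ1 mice 1, 2 and 3, and 8.60 and 9.68 in control mice 1 and 2. JQ1 mice were tightly grouped, at 10.40 ± 0.17 (SD, n = 3), whereas the control mice stood more than 1 log2 unit apart, at 9.14 ± 0.76 (SD, n = 2). It was 2.40-fold higher (log2 fold change 1.26, SE 0.21, adjusted p = 0.000127), and the log2 fold change was 0.72 without control mouse 1, under the 2-fold limit, and 1.80 without control mouse 2.

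**Figure D2:**
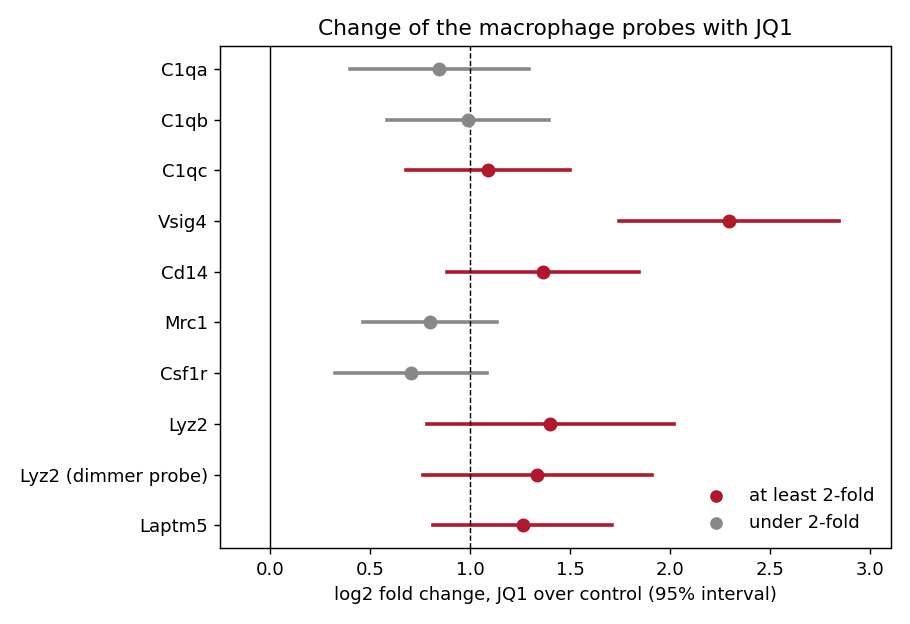
Log2 fold change of each kept macrophage probe, JQ1 over control (points), with its 95% interval from limma (lines); the dashed line marks 2-fold, red probes are at least 2-fold and grey probes under it. All 10 intervals lie above 0 on the common-distribution scale, and 6 of the 9 genes turn negative after rescaling to equal Sertoli cell signal, which moves all genes by a median of -1.27.

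The members varied among the mice in a shared order. JQ1 mouse 1 was the lowest JQ1 mouse in 9 of 9 members, and it was also the lowest in 73.9% of the 989 genes called higher. JQ1 mouse 3 was the highest in 6 members and JQ1 mouse 2 in the other 3. Over the members the median difference from the control mean was 0.68 in JQ1 mouse 1, 1.31 in JQ1 mouse 2 and 1.16 in JQ1 mouse 3 on the log2 scale. Control mouse 2 was above control mouse 1 in 7 of 9 members, against 53.6% of all genes and 72.7% of the genes called higher. Lyz2, Vsig4 and Laptm5 differed by more than 1 log2 unit between the control mice, as did 0.893% of all genes, and the median difference between them was 0.56 over members and 0.18 over all genes. How many members were called thus depended on the control mouse. Without control mouse 1, 2 of 9 members were called and 6 passed the adjusted p, where 877 of 11755 genes were called higher. Without control mouse 2, 7 members were called and 9 passed, where 1206 genes were called higher.

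The background correction and the scale of the arrays also set how many members passed 2-fold. With no background correction 3 members were called, and all 9 passed the adjusted p. Rescaling was examined because values are shares of a testis whose cell makeup may differ, and was chosen after the data were seen. With arrays shifted to equal means of the Leydig, peritubular, stromal and endothelial genes, which moved the median of all genes by -0.56, the member median was 0.52, Vsig4 alone was called, and 5 members passed. With arrays shifted to equal means of the Sertoli cell genes, which moved the median of all genes by -1.27, the member median was -0.19, and of all genes 10 were called higher and 7816 lower. There Vsig4 still rose (log2 fold change 1.02), Cd14 and Lyz2 stood at 0.09 and 0.13, and the other 6 were between -0.57 and -0.013, of which Csf1r and Mrc1 passed as lower (adjusted p = 0.0229 and 0.0341). Each scaling adds 1 constant per array, so that differences between genes are the same as before by construction.

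**Figure D3:**
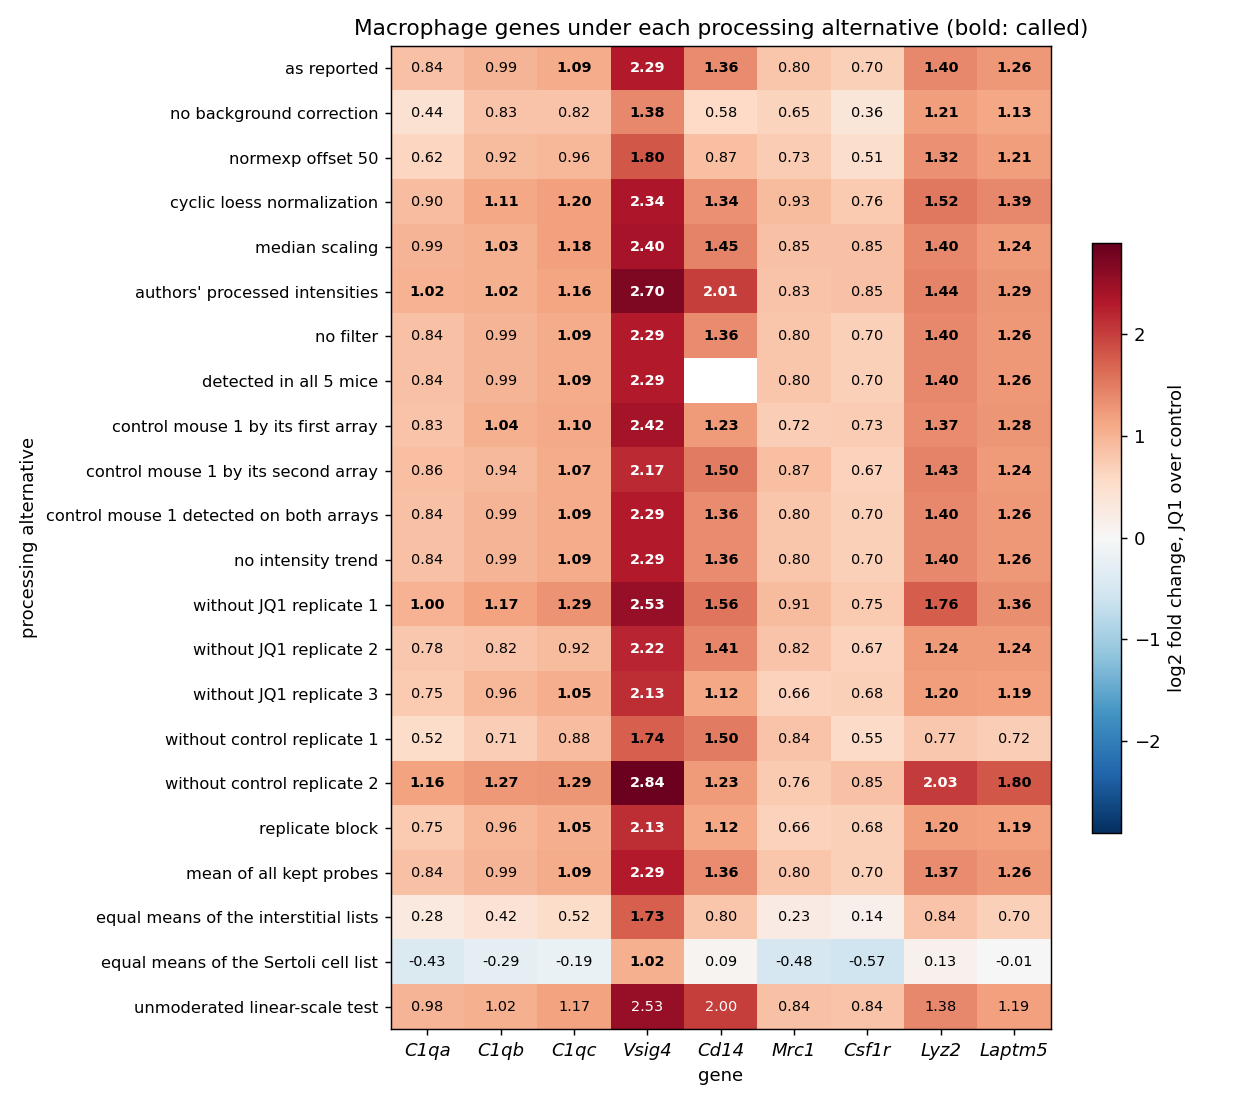
Log2 fold change (JQ1 over control) of each macrophage gene (columns) under each processing alternative (rows), with called values in bold and the blank cell marking Cd14, which is dropped where detection in all 5 mice is required. Values stay above 0 in every row except rescaling to equal Sertoli cell signal, where 6 of 9 are below 0 and all genes are moved by a median of -1.27.

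Other genes of these pathways did not all follow the members. Of 20 further macrophage surface genes 14 were kept, of which 6 rose, 1 fell and 7 did not pass, with a median log2 fold change of 0.37 against 0.000322 over all genes. Mertk, a receptor through which phagocytes engulf apoptotic cells, was 2.65-fold higher (adjusted p = 9.06e-06) and Ms4a7, a marker of resident macrophages, 2.10-fold (adjusted p = 0.000266). Without background correction neither was called, at log2 fold changes of 0.79 for Mertk and 0.62 for Ms4a7. Which cells of the testis gave the Mertk signal was not tested, and Sertoli cell genes rose as well, as given below. Stab1 (0.91), F13a1 (0.97) and Mpeg1 (0.66) also rose, on the log2 scale, and Folr2, not detected in either control mouse, rose at least 1.52-fold. The scavenger receptor gene Msr1 fell by 0.43 (adjusted p = 0.0451). Adgre1, which encodes F4/80, stood at 0.39 and did not pass (adjusted p = 0.218), and Aif1 at -0.13. Itgam, Fcgr1, Siglec1, Marco and Ccr2 were detected in 0 of 5 mice, and Cd163 in 1 JQ1 mouse. The probes of several defining macrophage transcripts were thus below detection in these testes. All 9 measured members were detected, but they were chosen with earlier results of these data known. A probe below detection does not show that its transcript is absent, since 1 Csf1r probe and 1 Lyz2 probe were also detected in 0 mice.

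Of the pan-leukocyte genes, 8 of 18 were kept, with 1 higher, 1 lower and a median log2 fold change of 0.17. Vav1, a signalling adaptor, fell by 0.80 (adjusted p = 0.00112). All 4 probes of Ptprc, the gene of the leukocyte marker CD45, were detected in 0 of 5 mice.

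Among 17 measured complement proteins and regulators 7 rose, 4 fell and 6 did not pass, with a median log2 fold change of 0.23. C2, the protease that C1s cuts after C1q binds, was 2.36-fold higher (adjusted p = 9.61e-06). Masp1 of the lectin pathway was 2.35-fold higher and Cd59a, which blocks the membrane attack complex, 2.33-fold. Masp1 was under 2-fold without background correction (log2 fold change 0.72) and without control mouse 1 (0.99). Among the 4 that fell, C4a decreased by 0.78 and C4b by 0.56 on the log2 scale, genes of near-identical sequence whose probes may not tell them apart. Of 8 complement receptor genes other than Vsig4, only Itgb2 (0.01) and Cd93 (-0.18) were kept, and neither passed. C3ar1 and C5ar1 were detected in 0 mice.

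Around Cd14, 12 genes of lipopolysaccharide sensing were kept, of which 5 rose, 2 fell and 5 did not pass, with a median log2 fold change of 0.44. Traf6, the ubiquitin ligase of the pathway, was 2.62-fold higher (adjusted p = 6.66e-05) and Lbp, which delivers lipopolysaccharide to CD14, 2.16-fold (adjusted p = 0.000852). Irak3, which restrains the pathway, fell by 0.76 (adjusted p = 0.000525). Tlr4 itself, the receptor that CD14 serves, was detected in 0 mice on 3 probes, and Ly96, its partner MD-2, stood at 0.64 without passing (adjusted p = 0.0544). Lbp and Traf6 were not called without background correction, where the log2 fold changes were 0.57 and 0.68, nor without control mouse 1, where they were 0.83 and 0.98.

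Around Csf1r, 5 of 13 genes of the CSF1 axis and of myeloid transcription factors were kept, of which 2 rose, 1 fell and 2 did not pass. The median log2 fold change was 0.38, or 0.00 with a gene undetected in controls at its bound. Cebpb, a transcription factor of macrophages and of many other cells, was 2.46-fold higher (adjusted p = 0.000145), and under 2-fold, at log2 fold changes of 0.92 without background correction and 0.87 without control mouse 1. Irf8, which directs monocyte and macrophage fate, rose by 0.98 (adjusted p = 0.00488), and Klf4 fell by 0.56 (adjusted p = 0.0069). Irf8 was detected in 1 of 2 control mice, so that its fold rests partly on background. Spi1, the gene of PU.1, and Il34 were detected in 0 mice, and Csf1, detected in no control mouse, did not pass.

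Around Laptm5 and Lyz2, 9 further genes of the phagosome oxidase and the lysosome were kept, of which 6 rose, 0 fell and 3 did not pass, with a median log2 fold change of 0.64. The lysosomal protease gene Lgmn was 3.22-fold higher (adjusted p = 1.37e-07), the membrane protein gene Lamp2 2.54-fold, the lipase gene Lipa 2.28-fold and Gpnmb 2.14-fold. Without background correction Lipa and Gpnmb were not called, at log2 fold changes of 0.60 and 0.50. Many cell types of the testis use these lysosomal genes. Cybb, the oxidase subunit that defines phagocytes, was detected in 0 mice. Around Mrc1, 9 scavenger and mannose-type receptors were kept, of which 4 rose and 0 fell, with a median of 0.47, led by Scara3 (3.37-fold), Scarb2 (2.49-fold) and Scara5 (2.22-fold), which are not particular to macrophages. Scarb2 was detected in 1 of 2 control mice, and without background correction its log2 fold change was 0.54 and not called.

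Among 9 kept genes of Fc receptors and their ITAM adaptors 4 rose, 2 fell and 3 did not pass, with a median log2 fold change of 0.16. Fcgrt, the neonatal Fc receptor, was 2.87-fold higher (adjusted p = 2.04e-06) and Trem2, a lipid receptor of macrophages, 2.30-fold (adjusted p = 6.95e-05). Trem2 was detected in 1 of 2 control mice, so that its fold rests partly on background, and without background correction its log2 fold change was 0.49 and not called. The shared adaptor gene Fcer1g rose by 0.83 (adjusted p = 0.00382), while Tyrobp, through which TREM2 signals, stood at 0.07 and did not pass (adjusted p = 0.865). Fcgr4 had log2 signals between 4.55 (mouse 1) and 5.29 (mouse 2) in the JQ1 mice, and 5.43 and 7.57 in control mice 1 and 2. Its log2 fold change of -1.55 (adjusted p = 0.00339) rested on control mouse 2, without which it was -0.48 and did not pass (adjusted p = 0.196).

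**Figure D4:**
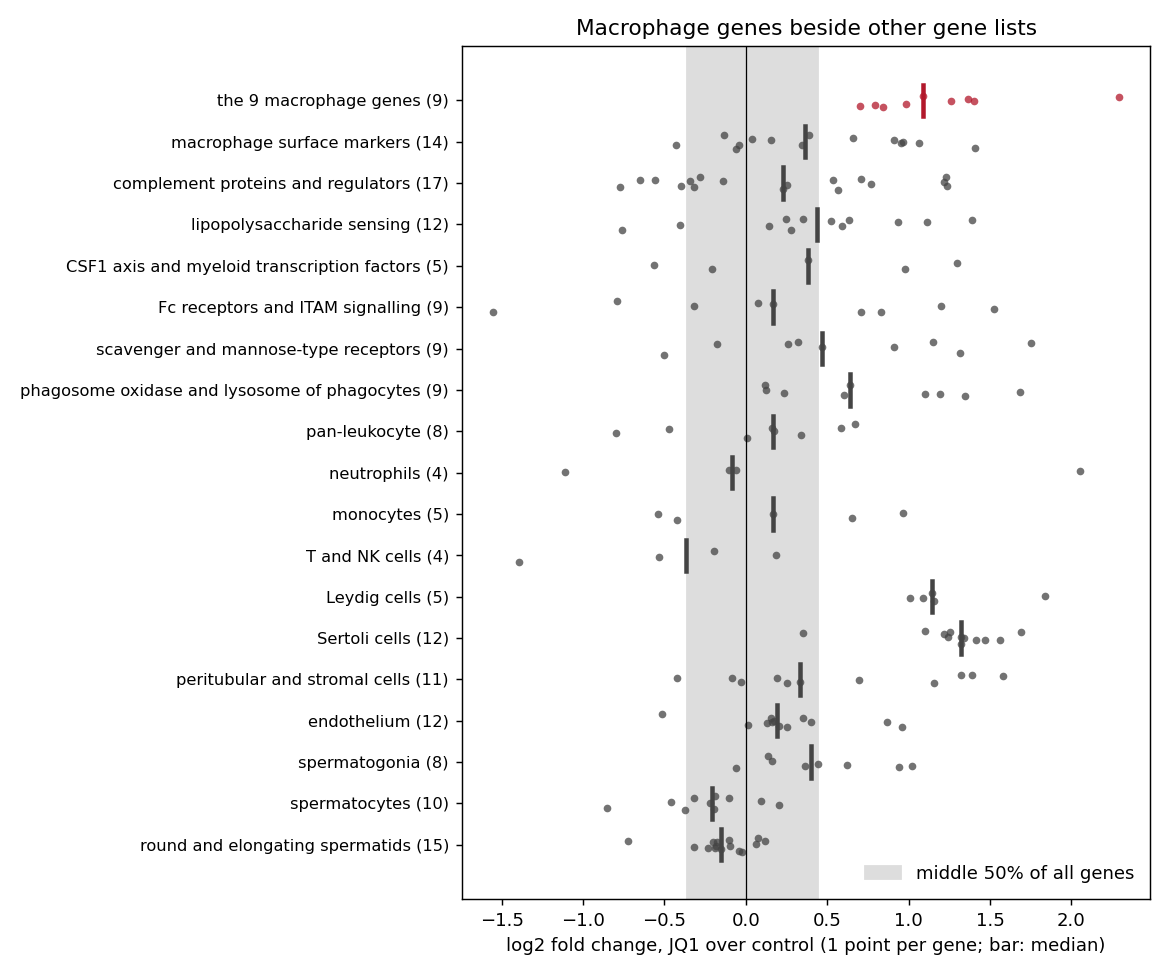
Log2 fold change (JQ1 over control) of each measured gene (points) in the macrophage genes (red) and in other lists (grey; numbers of genes in parentheses), with bars for list medians and a grey band for the middle 50% of all genes. On the common-distribution scale the 9 macrophage genes lie to the right of the band, around a median of 1.09, beside medians of 0.37 for other macrophage surface markers, 1.15 for Leydig cells and 1.32 for Sertoli cells; rescaled to equal Sertoli cell signal, which moves all genes by a median of -1.27, the macrophage median is -0.19.

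Some markers of other cells also differed between the groups, and their part in the members' change was not tested. Blood was read from 2 of 7 erythroid genes. Hba-a1, alpha-globin, had log2 signals of 9.92, 10.79 and 10.91 in JQ1 mice 1, 2 and 3, against 8.44 and 9.16 in control mice 1 and 2, and was 3.34-fold higher (adjusted p = 1.29e-05). Its mice stood in the same order as those of Lyz2, with JQ1 mouse 1 lowest among the treated and control mouse 2 above control mouse 1. Both features were common among all genes called higher, of which 73.9% had JQ1 mouse 1 lowest and 72.7% had control mouse 2 above control mouse 1. The summed linear signal of the erythroid genes was 1248 to 2140 in JQ1 mice and 507.1 to 760.6 in control mice. The other kept erythroid gene, Alas2, stood at 0.39 and did not pass (adjusted p = 0.0836), Hbb-b2 was detected in 1 JQ1 mouse and Slc4a1 in 0 mice.

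Of 13 neutrophil genes 4 were kept, with 1 higher and 1 lower and a median log2 fold change of -0.08. Lcn2 was 4.15-fold higher (adjusted p = 9.7e-08) and Mpo fell by 1.11 (adjusted p = 9.09e-05) or, without background correction, by 0.60, whereas S100a9, Ngp and Camp were detected in 0 mice, S100a8 in JQ1 mouse 2 and Ltf in JQ1 mouse 1. The summed linear signal of the neutrophil genes, 11982 to 20282 in JQ1 mice and 4043 to 4439 in control mice, is nearly all Lcn2, which epithelial cells also make. Of 8 monocyte genes 5 were kept, with 2 higher and 2 lower and a median of 0.17. Among T and NK cell genes 4 of 15 were kept, 0 rose and 1 fell, Cd3d by 1.39 (adjusted p = 1.48e-06). Cd3e, Cd3g, Cd2 and Cd8a were detected in 0 mice, so that Cd3d alone is not read as a change of T cells. Of 9 B cell genes 0 were kept, and of 2 kept dendritic cell genes neither passed.

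Leydig and Sertoli cell genes rose beside the members, on the common-distribution scale. All 5 Leydig cell genes measured were called higher, with a median log2 fold change of 1.15, as were 11 of 12 Sertoli cell genes, with a median of 1.32. Of 11 peritubular and stromal genes 5 rose and 1 fell (median 0.33), and of 12 endothelial genes 2 rose and 0 fell (median 0.19). With genes undetected in a whole group at their bounds, medians were 0.27 for the macrophage surface genes, 0.32 for the scavenger receptors, 0.0045 for the pan-leukocyte genes and 0.00 for the monocyte genes. Germ cell lists lay at 0.40 for spermatogonia, -0.21 for spermatocytes and -0.15 for spermatids. By histology, the study reported fewer spermatids and spermatozoa in testes of JQ1-treated mice. Cell makeup was not measured here, and its part in the members' share was not tested. The rescaling given above adds a constant per array and does not measure makeup.

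Outside the lists, the genes whose values followed the member mean most closely were Rps4x, Copz2, Txnip, Akr1b10 and Cst3. Likeness was the root mean square difference of log2 values, taken from the control mean, over 5 mice and 9771 candidate genes, and it was 0.06 for Rps4x, 0.06 for Copz2, 0.07 for Txnip, 0.07 for Akr1b10 and 0.09 for Cst3, against a median of 0.99 over all candidates. Cst3, a secreted inhibitor of lysosomal cysteine proteases, had log2 signals of 11.89, 12.34 and 12.44 in JQ1 mice 1, 2 and 3, and 10.84 and 11.14 in control mice 1 and 2. The member mean was 0.84, 1.33 and 1.41 in the JQ1 mice and -0.28 and 0.28 in the control mice. Cst3 was chosen by its likeness to these values, so that a matching order of mice follows from the choice.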

How the data were processed

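Testis RNA of 5 mice was measured on 6 Illumina bead arrays, with 2 arrays for control mouse 1. For each probe on each array the authors deposited the raw signal intensity, the p-value of its detection, and an intensity after their background correction and normalization. Per the methods, values of the technical pair were averaged and negatives became 1. The scanner software is not stated. The number of per-sample columns left unassigned was 0.

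In R 4.3.3 with limma 3.58.1, the deposited raw intensity was background-corrected by normexp from the detection p-values (offset 16), quantile normalized and taken to log2. Values of both arrays of control mouse 1 were averaged, and it counted as detected where either array was. Probes detected (p under 0.05) in at least 2 of 5 mice were kept. The fit had no block, moderated the variances and let them depend on intensity. Probes were named from the platform annotation, with symbols updated through gene IDs: 34885 have 1 symbol, 18 several and 10378 none. Of the kept probes 17686 have 1 symbol, and a gene is represented by its brightest. For a gene detected in no mouse of a group a bound replaces its fold: the brighter group's mean against the lowest detected signal per array in the other, or the probe's own where higher.

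The members and gene lists were chosen with earlier results of these data known. The rule names all members, up to 4 called genes of each list (or its 2 brightest), and the 5 genes nearest the member mean. Lists of Leydig, Sertoli, peritubular, endothelial and germ cells are given by counts and medians only, without their genes. The pan-leukocyte gene that rose is not reported here by name. Other list genes given here were named after their values were seen, as partners or defining markers. No gene of the epididymis list was kept. The p-values rest only partly on the spread between 3 and 2 mice. Each variance was moderated toward those of other probes of similar intensity. For the brighter Lyz2 probe the SD was 0.62 in JQ1 mice and 0.89 in control mice, beside a moderated SE of 0.30. In simulated data the fit recovered 84 of 100 probes with a log2 change of 1.5 and 96 of 100 with one of 2. It made 0 calls among 20701 unchanged probes. Smaller log2 changes, such as the member median of 1.09, were not simulated. Probes were drawn independently there, so that differences between mice shared by many genes were not simulated. Alternatives changed the background correction, normalization, filter, technical pair, variance model, mice, block, probe choice and test, and 2 scalings were added after seeing the data. The other test was an unmoderated unequal variance test, gene by gene, on the authors' processed intensities on the linear scale. The marker selection module that the study's methods name was not run here.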

Additional observations from a re-analysis of the deposited data

How the results depend on the processing

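The number of members called was 5 as reported. It was 6 with cyclic loess normalization, 6 with median scaling and 7 with the authors' processed intensities, where all 9 passed the adjusted p. It was 3 without background correction and 3 with a normexp offset of 50, where all 9 members still passed the adjusted p. Over all genes those settings called 427 higher and 72 lower, and 629 and 159, against 989 and 333 as reported and 1502 and 539 with the authors' processed intensities. Leaving out 1 mouse at a time gave 2 to 7 members called, 6 to 9 passing the adjusted p and a median log2 fold change of 0.77 to 1.29, and the lowest values came without control replicate 1. By an unequal variance test gene by gene on the authors' processed intensities, without moderation and on the linear scale, 0 members were called and 0 passed the adjusted p, while 2 passed an unadjusted p under 0.05 as higher and 1 of these was at least 2-fold. That test called 1 gene of all 11755 higher and 0 lower, against 1197 higher at an unadjusted p under 0.05 with 2-fold. With interstitial means set equal, 1 member was called, 5 passed the adjusted p and the median was 0.52. With Sertoli means set equal, 1 was called, 1 passed as higher and 2 as lower, and the median was -0.19, with C1qa at -0.43, C1qb at -0.29, C1qc at -0.19, Csf1r at -0.57, Laptm5 at -0.013 and Mrc1 at -0.48. The cause of these differences was not tested. Among named genes both scalings were run for the members only. Under the other alternatives the sign changed for 4 other named genes that lay near 0 and did not pass: Itgb2 was -0.039 with cyclic loess, -0.060 by the second array of control mouse 1 and -0.19 to 0.21 with a mouse left out. Zbtb46 was 0.051 with median scaling, 0.077 by the first array and -0.24 to 0.12 with a mouse left out, Cpa3 was -0.81 to 0.12 with a mouse left out, and Cd8b1 was -0.21 as the mean of its probes. Replicate numbers were not used as a pairing. Deviations of same-numbered mice correlated at r = 0.15 and 0.02 across probes. With 2 control mice these values are not independent and cannot exclude a pairing. The fit with the replicate block gave 5 members called, 9 passing and a median of 1.05. Signal over background limits Cd14, near the detection limit in both control mice, and Vsig4 in control mouse 1.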

Other observations

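Genes related by sequence to the members were also measured. Of 19 such paralogs 8 were kept, of which 4 were called higher, 0 fell and 4 did not pass, with a median log2 fold change of 0.71. Pdgfra, a growth factor receptor of the family of Csf1r found on stromal cells, had log2 signals of 8.61, 8.89 and 9.05 in JQ1 mice 1, 2 and 3, against 7.03 and 7.51 in control mice 1 and 2, and was 2.99-fold higher (adjusted p = 2.18e-06 by limma). Kit, the receptor of the same family on spermatogonia and Leydig cells, was 2.03-fold higher (log2 fold change 1.02, SE 0.15). Kit was under 2-fold without background correction (log2 fold change 0.84) and without control mouse 1 (0.98). Of 8 mast cell genes 2 were kept. The histidine decarboxylase gene Hdc was 2.23-fold higher, whereas the protease gene Cpa3 stood at -0.34 and did not pass. Without control mouse 1 the log2 fold change of Hdc was 0.97, under 2-fold.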
